A study of Mus musculus with 16 samples.

Results

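The genes described here were 48 genes of the cell division cycle, 26 that work in DNA replication and 22 that work in mitosis, measured in labelled and unlabelled epithelial cells of the mouse small intestine. They were chosen by name for their known function, and the rule that lists them uses no measured value. Earlier results of these data were known when the choice was made. All 48 were found by gene symbol among the 45513 gene identifiers of the count tables (GRCm38), and all 48 passed the expression filter that left 15323 genes for testing. The lowest count of any of the 48 in any library was 50, so none was near the limit of detection.

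A dividing cell first loads the MCM helicase onto replication origins, with CDC6 and CDT1 as loading factors, and then fires the origins, copies its DNA with polymerases clamped by PCNA, and joins the new strands. It later condenses and separates the chromosomes with cyclin B, CDK1, the Aurora and Polo kinases, kinetochore proteins and kinesin motors. E2F factors drive transcription of replication genes at the G1/S transition, and the DREAM complex and its partners time the mitotic genes through CHR and CCAAT elements. In the intestinal epithelium these transcripts are known from the crypt, where stem cells and transit-amplifying progenitors divide, and are low in mature villus cells.

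RNA was sequenced from 8 mice, each giving 1 library of EpCAM+tdTom+ cells and 1 library of EpCAM+tdTom− cells, 16 libraries in all. All mice, tdTom− fractions included, carried Atoh1(WT)CreERT2 and R26RtdTom and had been given tamoxifen, according to the labels 1 mg a day for 3 days. The recombinase was made from the *Atoh1* locus. The reporter therefore marked cells that expressed *Atoh1* at the time of tamoxifen, together with their later progeny. The study reports this transcription factor in secretory progenitors and also in mature Paneth and goblet cells. The tdTom− fraction was every other EpCAM+ cell of the preparation. For sequencing, the methods describe pooled crypt-enriched material, with a villus-enriched part discarded, so tdTom− cells do not stand for the whole epithelium. The methods of the study give the same schedule for the comparison that defined its secretory signature.

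The libraries held 17116405 to 25323567 counts assigned to genes. *Atoh1* measured 47.9 to 80.0 CPM (counts scaled to a common library size) in the tdTom+ libraries and 0.502 to 1.25 CPM in the tdTom− libraries, with no overlap. All 8 goblet markers, 8 Paneth markers and 8 enteroendocrine markers and all 6 tested tuft markers were higher in tdTom+ cells, and all 8 absorptive markers were lower, at an adjusted p under 0.01. Of the 8 stem cell markers 4 were higher in tdTom+ cells, *Lgr5*, *Smoc2*, *Slc12a2* and *Rgmb*, and the other 4 did not pass. Of the 7 tested immune markers 5 were lower in tdTom+ cells. The summed level of all 8 immune markers ran from 10.7 to 138 CPM in tdTom− libraries against 5.84 to 27.2 CPM in tdTom+ libraries. Of the 3 tested stromal markers 1 passed, *Vim*, higher in tdTom+ cells at 15.7 to 41.7 CPM against 0.938 to 3.80 CPM in tdTom− libraries. *Pecam1* and *Acta2* did not pass, and *Col1a1*, *Col1a2*, *Col3a1*, *Dcn* and *Pdgfra* did not enter the test.

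None of the 48 genes differed between tdTom+ and tdTom− cells at the threshold used, although 55.8% of all genes tested did, 25.8% higher and 30.0% lower in tdTom+ cells (edgeR quasi-likelihood test with the mouse as block, Benjamini-Hochberg adjusted p under 0.01). The differences were small. They ran from -0.22 for *Cdt1* to 0.32 for *E2f1* on the log2 scale, and the median absolute difference was 0.10 for the 48 genes against 0.38 for all genes tested. An absolute difference no larger than that of *E2f1* was found for 44.4% of all genes. DESeq2 and limma-voom, each with the mouse as block, also called 0 of the 48, and so did edgeR without the block, with 49.6% of all genes called. At an unadjusted p under 0.05, 7 of the 48 passed with edgeR, where 68.2% of all genes did, and all 7 were replication genes. In bulk RNA a smaller share of dividing cells and less of these transcripts in each dividing cell cannot be told apart, and equal levels do not show equal numbers of dividing cells.

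The 95% intervals limited how large a difference these libraries could hide. For 48 of the 48 genes the interval lay inside a 2-fold change in both directions, as it did for 10621 of the 15323 genes tested. For 47 of the 48 it also lay inside 1.5-fold, and the exception was *Dut*, the enzyme that keeps uracil out of DNA, whose interval ran from -0.02 to 0.59. The median standard error of a log2 difference was 0.12 for the 48 genes and 0.09 for all genes. The ranges of the 8 tdTom+ and 8 tdTom− libraries overlapped for all 48 genes, whereas they stood apart for 31.6% of all genes tested.

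**Figure D1:**
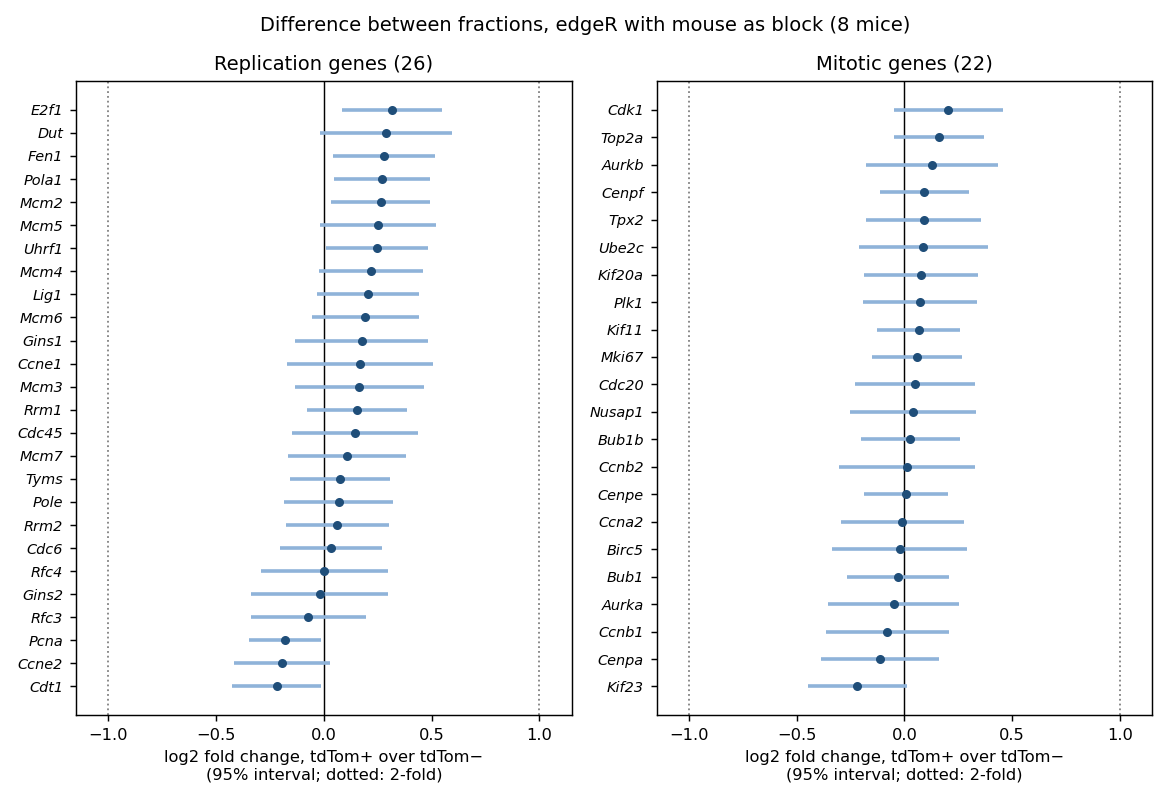
Log2 fold change of tdTom+ over tdTom− cells for 26 replication genes (left) and 22 mitotic genes (right), one point per gene with its 95% interval from the edgeR fit with the mouse as block (8 mice). All points lie between -0.22 and 0.32, and every interval stays inside the dotted lines that mark a 2-fold change.

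The MCM2 to MCM7 proteins form the ring of the replicative helicase, and their 6 genes had similar small positive differences. *Mcm2* measured 37.7 CPM at the lowest, 43.3 at the median and 52.3 at the highest in tdTom+ libraries, and 22.9, 36.1 and 64.5 CPM in tdTom− libraries. The tdTom+ range of *Mcm2* lay wholly inside the tdTom− range, and its log2 difference was 0.26 ± 0.11 (SE, 8 mice) with an edgeR adjusted p of 0.0425 and a higher tdTom+ level in 6 of 8 mice. *Mcm5* had a tdTom+ median of 45.4 CPM (35.6 to 58.3) and a tdTom− median of 38.3 CPM (25.9 to 73.1). For *Mcm6*, the highest of the 6 per kilobase of exon, the medians were 79.1 CPM (56.9 to 98.6) and 69.3 CPM (44.6 to 119). The tdTom− range was the wider one for each of these 3 genes.

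The other MCM genes gave the same picture. *Mcm4* had medians of 36.7 CPM (29.7 to 42.3) in tdTom+ and 30.9 CPM (18.9 to 57.3) in tdTom− libraries. *Mcm3* had medians of 36.0 CPM (27.5 to 43.6) and 33.3 CPM (18.7 to 59.2), and *Mcm7* had 56.3 CPM (40.1 to 66.0) and 49.0 CPM (36.7 to 91.9). Log2 differences of the 5 genes other than *Mcm2* ran from 0.11 for *Mcm7* to 0.25 for *Mcm5*, and no adjusted p of theirs was below 0.0915.

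Apart from *Mcm2*, 3 replication genes had an edgeR adjusted p between 0.01 and 0.05, and all were higher in tdTom+ cells by estimate. The widest difference was that of *E2f1*, the transcription factor of the G1/S switch, with a tdTom+ median of 7.53 CPM (5.66 to 8.26) and a tdTom− median of 5.62 CPM (4.74 to 9.84). Its log2 difference was 0.32 ± 0.11 (adjusted p = 0.0190). *Pola1*, the catalytic subunit of the polymerase that starts each new strand with primase, had medians of 21.2 CPM (19.0 to 25.9) and 18.3 CPM (11.9 to 28.1) and a difference of 0.27 ± 0.10 (adjusted p = 0.0334). *Fen1*, the nuclease that trims Okazaki fragments, had 26.6 CPM (21.4 to 31.7) and 21.8 CPM (16.1 to 40.9) and a difference of 0.28 ± 0.11 (adjusted p = 0.0382). Each of the 3 was higher in tdTom+ cells in 7 of 8 mice, with mouse 7 as the exception. At an adjusted p under 0.05, 65.4% of all genes tested passed.

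These calls turned on mouse 7. Without it, 6 replication genes passed the 0.01 threshold in the same edgeR fit, all higher in tdTom+ cells: *Mcm2*, *Mcm4*, *Pola1*, *Fen1*, *Uhrf1* and *E2f1*. In that fit 58.5% of all genes tested were called. Without mouse 3, *E2f1* alone passed, beside 53.2% of all genes. In the fit without mouse 7, log2 differences of the 6 genes ran from 0.32 for *Mcm4* to 0.41 for *E2f1*, still under 1.5-fold. No mitotic gene passed with any mouse left out. Scaling also mattered for the replication genes. Upper quartile factors called 3 of them (57.3% of all genes) and keeping genes with 10 or more counts in each library called 5 (58.9% of the genes then tested), and these choices moved the differences of all genes upward by 0.10 and 0.12 at the median.

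Some replication genes lay on the other side of zero. *Pcna*, the sliding clamp, was lower in tdTom+ cells in 6 of 8 mice, with a tdTom+ median of 62.6 CPM (52.0 to 71.6), a tdTom− median of 68.8 CPM (58.9 to 88.6) and a log2 difference of -0.18 ± 0.08 (adjusted p = 0.0579). The reference annotation lists pseudogenes named for *Pcna*, *Ccnb1* and *Ccnb2*, and reads shared with such copies are uncertain. *Cdt1*, the licensing factor destroyed once S phase begins, had a difference of -0.22 ± 0.10 (adjusted p = 0.0589). Its bounds overlap another gene model on the same strand, whose shared reads were not assigned. The bounds of *Mcm7*, *Pola1*, *Pole*, *Top2a*, *Tpx2* and *Nusap1* also overlap other gene models on their strand. *Ccne2*, an E-type cyclin, had a difference of -0.19 ± 0.10, whereas the other E-type cyclin, *Ccne1*, had 0.17 ± 0.16. *Rfc3*, a clamp loader subunit, and *Gins2*, of the helicase-activating GINS complex, were the remaining genes below zero.

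In all, 21 of the 26 replication genes had a positive log2 difference and 5 a negative one, with a median of 0.16, where the median of all genes tested was 0.02. The replication median was 0.08 without mouse 5, 0.07 without mouse 6, 0.25 without mouse 7 and 0.10 with total counts as the only scaling, and it was raised by the upper quartile factors and the count filter to 0.26 and 0.28. The genes of nucleotide supply, *Rrm1*, *Rrm2* and *Tyms*, had differences of 0.16, 0.06 and 0.07, and *Dut* had 0.29. Origin factors *Cdc6* and *Cdc45* had 0.03 and 0.14, and *Gins1* had 0.17. *Pole*, the leading strand polymerase, *Rfc4* and the DNA ligase *Lig1* had 0.07, 0.00 and 0.20. *Uhrf1*, which recruits DNA methylation to newly copied DNA, had 0.25 ± 0.11 (adjusted p = 0.0616).

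The 22 mitotic genes were closer to zero still, with 15 positive and 7 negative differences and a median of 0.04. This median did not keep its sign, and was -0.02 with total counts as the only scaling, -0.05 without mouse 5 and -0.02 without mouse 6. *Mki67*, the proliferation antigen, had a tdTom+ median of 148.4 CPM (139 to 185) and a tdTom− median of 148.1 CPM (107 to 209). Its log2 difference was 0.06, with a 95% interval from -0.15 to 0.27. *Top2a*, the topoisomerase that untangles sister chromatids, had medians of 146 CPM (115 to 164) and 133 CPM (98.1 to 184) and a difference of 0.16. For both genes the tdTom+ range lay inside the tdTom− range.

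The mitotic kinase *Cdk1* had the highest mitotic difference, 0.20 ± 0.12, with medians of 25.02 CPM (19.3 to 30.3) in tdTom+ and 21.3 CPM (13.9 to 36.0) in tdTom− libraries. Its cyclins lay nearer zero. *Ccnb1* had medians of 17.9 CPM (13.7 to 20.01) and 17.3 CPM (13.1 to 29.8) and a difference of -0.08, and *Ccnb2* and *Ccna2* had 0.01 and -0.01. The lowest difference was that of *Kif23*, the kinesin of the central spindle in cytokinesis, at -0.22 ± 0.11 (adjusted p = 0.0891) and lower in tdTom+ cells in 6 of 8 mice.

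The remaining mitotic genes fell between these ends. Among the kinases of mitosis and the checkpoint, *Aurkb*, *Plk1*, *Bub1b*, *Bub1* and *Aurka* had differences of 0.13, 0.07, 0.03, -0.03 and -0.05. Centromere and kinetochore genes *Cenpf*, *Cenpe* and *Cenpa* had 0.09, 0.01 and -0.11. The motors and spindle proteins *Kif20a*, *Kif11*, *Tpx2* and *Nusap1* had 0.08, 0.07, 0.09 and 0.04. *Cdc20* and *Ube2c*, which act with the anaphase-promoting complex, had 0.05 and 0.09, and *Birc5*, the survivin of the chromosomal passenger complex, had -0.02. The smallest adjusted p of the 22 was the 0.0891 of *Kif23*.

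Within single mice the genes moved in blocks, and the direction differed between mice. In mouse 5 all 48 genes were higher in tdTom+ cells, in mouse 6 47 of 48 and in mouse 1 44 of 48. Mice 2 and 3 had 30 and 32 of 48 higher. In mouse 7 none of the 48 was higher in tdTom+ cells, in mouse 8 only 8 and in mouse 4 only 10. Among all genes tested the share higher in tdTom+ cells stayed between 41.1% and 53.0% in every mouse, with mouse 7 the lowest. No member of the 48 kept 1 direction over all 8 mice, which 7712 of the 15323 genes tested did.

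**Figure D2:**
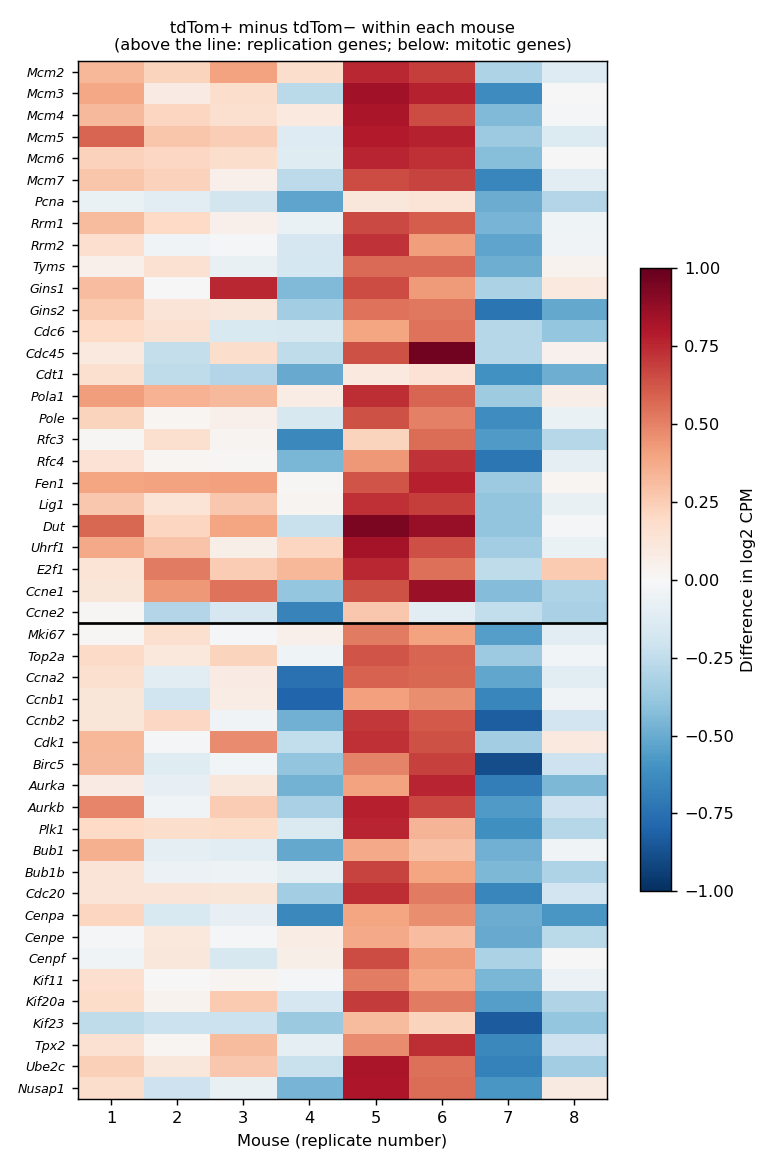
Difference in log2 CPM between the tdTom+ and tdTom− library of each mouse (columns) for the 48 genes (rows), red for higher and blue for lower in tdTom+ cells. Mouse 5 is red for all 48 genes and mouse 7 blue for all 48.

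A score per library, the mean log2 CPM over the genes of a group, put numbers on these blocks. The replication score was 4.35 ± 0.17 (SD, n = 8) in tdTom+ and 4.23 ± 0.36 in tdTom− libraries. Its difference within mice was 0.24, 0.13, 0.14, -0.19, 0.61, 0.59, -0.45 and -0.11 in mice 1 to 8, a mean of 0.12 ± 0.37 (SD). The mitotic score was 4.77 ± 0.19 and 4.73 ± 0.36, and its differences were 0.16, -0.01, 0.07, -0.29, 0.58, 0.51, -0.57 and -0.19, a mean of 0.03 ± 0.39. Both means were smaller than their spread over mice. The 3 mice with a negative replication difference, mice 4, 7 and 8, were those with the highest tdTom− scores, and since the difference contains that score this is a description only.

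The mitotic score was lower relative to the replication score in the tdTom+ library of every mouse. This compares means, and single genes of each group differed in sign. Log2 differences were positive for 21 and negative for 5 replication genes, and positive for 15 and negative for 7 mitotic genes. The mitotic minus replication score was 0.41 ± 0.07 (SD, n = 8) in tdTom+ and 0.50 ± 0.05 in tdTom− libraries. The change within a mouse averaged -0.09 ± 0.03 (SD), from -0.14 to -0.02, and had the same sign in 8 of 8 mice. Of the 15323 genes tested, 7712 also kept 1 direction over all 8 mice. For the mitotic minus replication score, the ranges of the 8 tdTom+ and 8 tdTom− libraries overlapped. Library scaling cancels in this contrast, which is given without a test because it was taken over a chosen list.

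**Figure D3:**
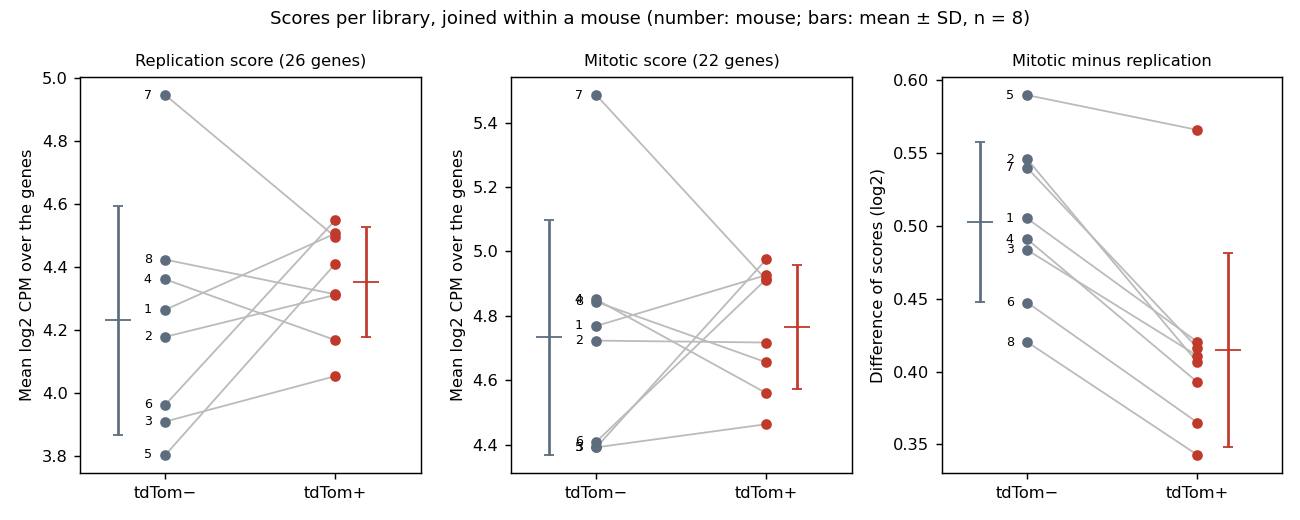
Replication score, mitotic score and their difference (mean log2 CPM over the genes) in the tdTom− and tdTom+ library of each mouse, with grey lines joining the libraries of a mouse, numbers naming the mouse and bars giving mean ± SD over 8 libraries. The lines of both scores cross in both directions, while all 8 lines of the difference fall from tdTom− to tdTom+.

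The tdTom− libraries varied more than the tdTom+ libraries. The SD of log2 CPM over mice was larger in the tdTom− fraction for 47 of the 48 genes, *Ccne2* being the exception, and for 68.7% of all genes tested. Its median over the 48 genes was 0.40 in tdTom− and 0.22 in tdTom+ libraries. The tdTom− library of mouse 7 was the highest of its fraction for 48 of the 48 genes, and the lowest was that of mouse 5 for 28 genes, mouse 3 for 16 and mouse 6 for 4. Without mouse 7, a check chosen after the data were seen, the SD was larger in the tdTom− fraction for 40 of the 48 genes and 58.1% of all genes, with medians of 0.27 and 0.20.

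Markers of other cells moved with these libraries. The mean log2 CPM of the 8 absorptive markers was 10.5 in the tdTom− library of mouse 7 and 11.4 to 12.0 in the other 7 tdTom− libraries. The stem marker mean was highest there too, 6.57 against 5.62 to 6.24, while the tuft marker mean was lowest at 0.45. Its immune marker mean was 3.37, close to the 3.39 of mouse 8 and above the 0.23 to 1.63 of the remaining 6 tdTom− libraries. In the tdTom+ fraction the library of mouse 7 also had the lowest absorptive marker mean, 7.32 against 8.25 to 9.36 in the others. The replication and mitotic scores of that tdTom+ library, 4.49 and 4.91, lay inside the ranges of its fraction (4.05 to 4.55 and 4.46 to 4.98). The part that these cell types had in the levels of the 48 genes was not tested.

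**Figure D4:**
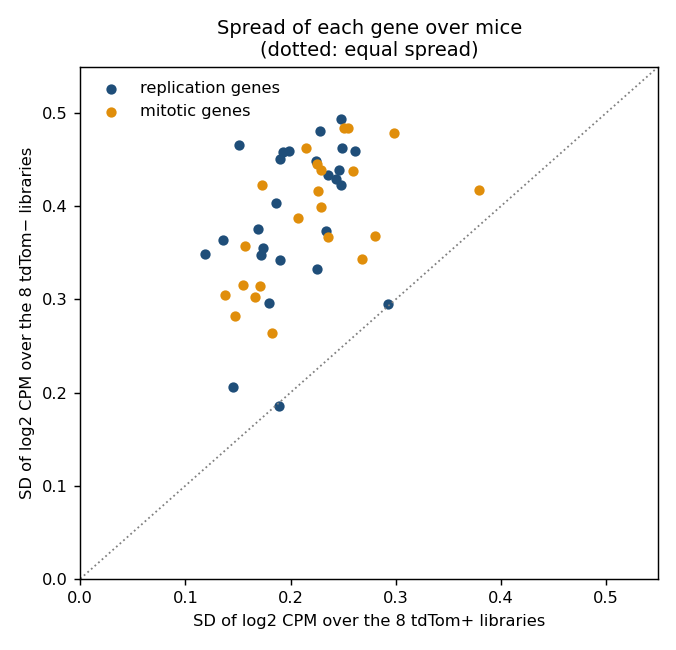
Standard deviation of log2 CPM over the 8 tdTom+ libraries (x axis) and the 8 tdTom− libraries (y axis), one point per gene. All points but that of *Ccne2* lie above the dotted line of equal spread.

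Levels are compared between genes per kilobase of exon, as means over the 16 libraries. *Pcna* was highest at 27.6 CPM per kb, and no other gene exceeded the 16.1 CPM per kb of *Mcm6*. *Ccnb2*, *Mki67* and *Top2a* followed at 15.5, 15.3 and 15.04 CPM per kb. *Cenpf*, a kinetochore gene with long exons, was lowest at 1.41 CPM per kb, next to *Ccne2* at 1.58, *Pole* at 1.62 and *Gins2* at 1.65. Replication and mitotic genes were mixed through this order.

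The start regions of the genes were searched for the words that E2F factors, CHR-binding complexes and CCAAT-binding factors are known to recognise. RefSeq promoter windows (GRCm38.p6, 250 bases before to 50 after the start) were matched to 39 of the 48 genes, all but *Mcm4*, *Gins1*, *Gins2*, *Pole*, *Ccne2*, *Ccna2*, *Aurkb*, *Kif20a* and *Tpx2*. An E2F word (TTTCCCGC, TTTCGCGC, TTTGCCGC or TTTGGCGC, either strand) lay in a window of 10 of 21 replication genes, 1 of 18 mitotic genes and 2.61% of all 27025 genes in the table. A CHR word (TTTGAA or TTCGAA) lay in windows of 14 of 18 mitotic genes (77.8%), 5 of 21 replication genes (23.8%) and 21.7% of all genes. The CCAAT box (CCAAT) was found for 16 of 18 mitotic genes, 12 of 21 replication genes and 41.1% of all genes. None of these words contains another, though matches on opposite strands can share bases. A match describes the letters in the window and does not show binding.

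Of each group, the windows of the 2 genes with the smallest p that held a word before the start are shown as examples, upstream bases only and 5′ to 3′ on the strand of the gene, with E2F words in capitals for the replication genes and CHR and CCAAT words in capitals for the mitotic genes. *Pola1* lies at chrX:93632156-93632405 on the minus strand, and *Uhrf1* at chr17:56304063-56304312 on the plus strand, inside the bounds of the counted gene but between its exons. *Kif23* lies at chr9:61946800-61947049 and *Cdk1* at chr10:69352913-69353162, both on the minus strand. *Cdk1* held 2 CHR words and 3 CCAAT boxes in these bases and was the mitotic gene that also held an E2F word, left in lower case. The counted *Cdk1* gene reaches to position 69352938. The last bases printed for *Cdk1*, with the CHR word nearest the start, lie inside those bounds.
Pola1: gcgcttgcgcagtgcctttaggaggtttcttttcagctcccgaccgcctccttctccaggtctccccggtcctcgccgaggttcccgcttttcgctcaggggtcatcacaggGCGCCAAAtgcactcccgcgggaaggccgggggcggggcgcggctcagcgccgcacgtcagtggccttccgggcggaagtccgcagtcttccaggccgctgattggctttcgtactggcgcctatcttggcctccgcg
Uhrf1: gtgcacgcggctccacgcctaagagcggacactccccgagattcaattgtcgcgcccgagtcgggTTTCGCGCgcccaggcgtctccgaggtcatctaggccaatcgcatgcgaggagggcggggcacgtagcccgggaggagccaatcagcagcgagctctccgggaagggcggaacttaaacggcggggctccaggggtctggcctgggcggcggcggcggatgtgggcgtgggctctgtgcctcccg
Kif23: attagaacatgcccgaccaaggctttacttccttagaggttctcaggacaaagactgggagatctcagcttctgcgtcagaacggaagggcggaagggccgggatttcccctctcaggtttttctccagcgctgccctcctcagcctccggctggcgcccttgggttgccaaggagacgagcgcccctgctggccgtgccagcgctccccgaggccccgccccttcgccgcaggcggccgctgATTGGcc
Cdk1: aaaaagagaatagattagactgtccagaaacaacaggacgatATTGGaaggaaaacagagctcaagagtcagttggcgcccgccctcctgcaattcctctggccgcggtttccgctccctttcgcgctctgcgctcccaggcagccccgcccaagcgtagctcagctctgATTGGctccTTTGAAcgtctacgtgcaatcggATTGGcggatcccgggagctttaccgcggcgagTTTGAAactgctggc

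The wider machinery around the 48 genes was read from 9 lists of 140 other genes, also chosen by function with earlier results known. Of these 28 passed the threshold (20%, against 55.8% of all genes), 14 higher and 14 lower in tdTom+ cells. The change exceeded 1.5-fold for 3 of them, *Rfc1*, *Cdc25b* and *E2f3*, and reached 2-fold for *Rfc1* and *Cdc25b*. With no mouse block 20 passed. Those that lost the call without it were *Orc5*, *Pold3*, *Dnmt1*, *Mis12*, *Ncaph2*, *Cks1b*, *E2f2* and *Tfdp1*. With 1 mouse left out, 19 (without mouse 1) to 33 (without mouse 7) of the 140 genes passed. The count was 24 without mouse 3, where *Orc3*, *Ncapd3*, *Ncaph2*, *Rbl1*, *Rbl2* and *Lin37* lost their calls. Apart from the 2-fold minimum itself, 13 of the 28 kept their call under every alternative tried.

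Among polymerase and fork genes 4 of 21 passed. *Rfc1*, the large subunit of the clamp loader, rose from a tdTom− median of 24.5 CPM (18.7 to 38.1) to a tdTom+ median of 86.1 CPM (71.4 to 99.5), with no overlap and a log2 change of 1.76 ± 0.07 (edgeR adjusted p = 6.44e-11). Its fellow subunits *Rfc3* and *Rfc4* differed by -0.07 and 0.00, and neither passed. The small subunits of polymerase epsilon, which also serve in chromatin complexes, went opposite ways, *Pole4* up by 0.46 and *Pole3* down to -0.46. *Pold3* had 0.27 with a call lost in 8 of 20 alternatives, 4 of them with 1 mouse left out.

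Of 15 origin licensing genes 3 fell and 1 rose. *Gmnn*, which encodes geminin, the inhibitor that binds CDT1, fell in 8 of 8 mice from a median of 19.1 CPM (17.3 to 22.8) to 12.9 CPM (10.8 to 15.7), a log2 change of -0.57 ± 0.08 (adjusted p = 2.3e-05). *Mcm10* fell in 8 of 8 mice from 27.4 CPM (23.96 to 30.5) to 20.5 CPM (16.3 to 23.4), a change of -0.48, while the helicase genes *Mcm2* to *Mcm7* did not pass. The origin recognition genes *Orc3* and *Orc5* changed by -0.31 and 0.29. The call of *Orc5* was lost in 10 of 20 alternatives, 6 of them with 1 mouse left out.

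Of 10 genes of nucleotide supply and new chromatin 1 passed, *Dnmt1*, the maintenance DNA methyltransferase, which rose from a median of 63.8 CPM (45.2 to 89.6) to 79.2 CPM (67.1 to 87.4), a log2 change of 0.31 ± 0.08 (adjusted p = 0.00574), with overlapping ranges. It lost the call without the mouse block and with any of 4 mice left out.

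Of the mitotic entry kinases and regulators 4 of 17 passed, and both Cdc25 phosphatase genes that passed moved apart. *Cdc25b* rose from 13.8 CPM (11.6 to 17.5) to 59.8 CPM (38.4 to 68.2), a log2 change of 2.08 ± 0.12 (adjusted p = 3.18e-09) and the widest of the 140 genes. *Cdc25a* fell from 67.3 CPM (63.5 to 73.2) to 52.9 CPM (50.1 to 58.3), a change of -0.34 ± 0.05 (adjusted p = 1.76e-05), in 8 of 8 mice. Both encode activators of cyclin-dependent kinases. *Fzr1*, the CDH1 activator of the anaphase-promoting complex, fell by 0.35 on the log2 scale, and *Cks1b* rose by 0.53, a call lost in 7 of 20 alternatives.

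The list of E2F, RB and DREAM genes had 9 of 17 past the threshold (52.9%, against 55.8% of all genes), the highest share of the 9 lists. *E2f3* fell from 21.8 CPM (14.3 to 25.05) to 10.5 CPM (9.50 to 11.5), a log2 change of -0.996 ± 0.08 (adjusted p = 8.98e-08), and *E2f2* rose by 0.36. Of the dimerisation partners of E2F, *Tfdp2* fell in 8 of 8 mice from 60.9 CPM (52.3 to 71.8) to 41.9 CPM (37.9 to 46.5), a change of -0.54, and *Tfdp1* rose by 0.29. The call of *Tfdp1* was lost in 7 of 20 alternatives, that of *E2f2* in 2. The pocket protein genes *Rbl1* and *Rbl2* changed by -0.31 and -0.30, and *Lin37*, of the DREAM core, by -0.44. *Rbbp4* and *Lin54*, also of that complex, rose by 0.40 and 0.25, and *Lin54* lost its call in 6 of 20 alternatives.

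None of 17 spindle motor and microtubule genes and none of 5 cytokinesis genes passed with edgeR (1 and 0 at an unadjusted p under 0.05). Of 26 kinetochore and checkpoint genes 2 passed, *Bub3* and *Mis12*, higher by 0.30 and 0.27. The call of *Mis12* was lost in 11 of 20 alternatives, among them limma-voom and 6 of the 8 fits with 1 mouse left out, and that of *Bub3* in 6. Of 12 condensin and cohesion genes 4 passed, with *Ncapg2* up by 0.43 and *Pttg1*, which encodes securin, *Ncapd3* and *Ncaph2* at -0.53, -0.31 and -0.20. The call of *Ncaph2* was lost in 12 of 20 alternatives.

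**Figure D5:**
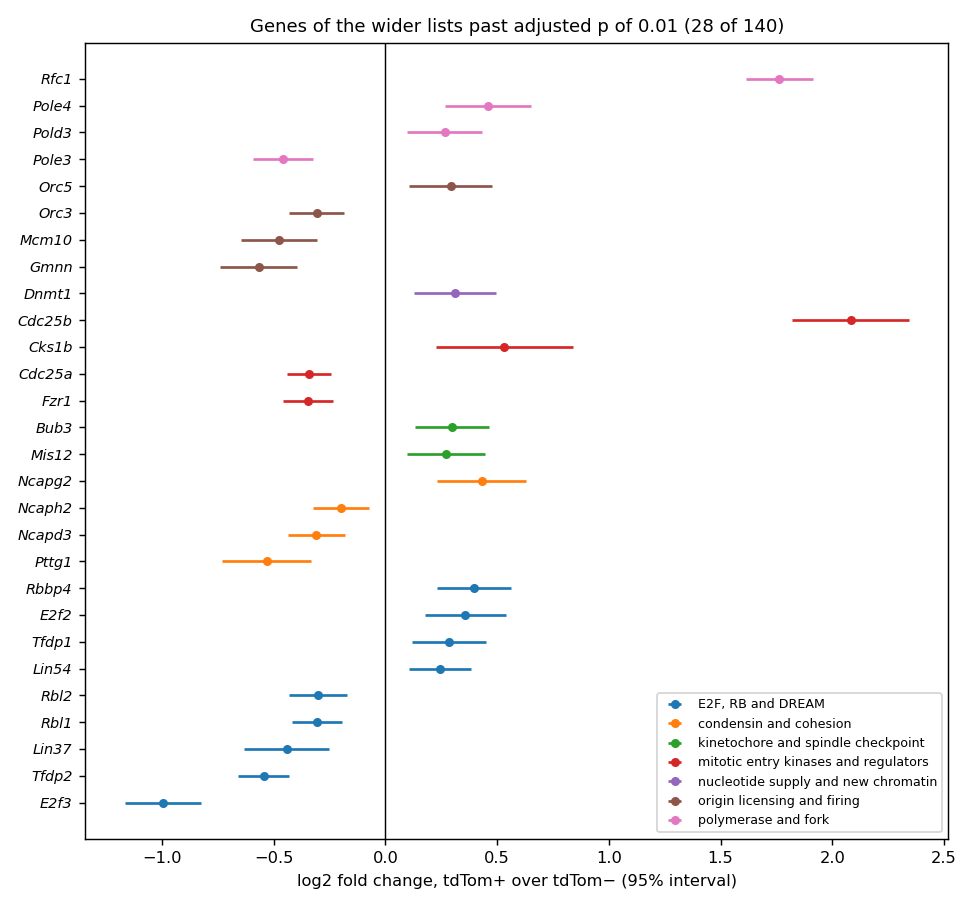
Log2 fold change of tdTom+ over tdTom− cells with its 95% interval for the 28 genes of the wider lists past the threshold, coloured by list. *Cdc25b* (2.08) and *Rfc1* (1.76) are furthest right, and *E2f3* (-0.996) is furthest left.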

How the data were processed

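mRNA of tdTom+ and tdTom− EpCAM+ cells of 8 mice was sequenced (TruSeq Stranded mRNA kit). The authors aligned the reads to GRCm38 with TopHat2 2.1.1, per the labels. The deposited values are raw counts per Ensembl gene from featureCounts (1.5.0-p1 per the file headers, Subread 1.5.2 in the submitters' processing notes), counted on exons, on the reverse strand and from primary alignments, so a read shared by overlapping genes was not assigned and a read mapping to several copies counted once.

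Gene symbols were those of GENCODE M21. The statistics were run in edgeR 4.0.16 under R 4.3.3 (filterByExpr, TMM factors, quasi-likelihood F-test, mouse number as block) over 15323 genes, with Benjamini-Hochberg adjusted p under 0.01 as the threshold. DESeq2 1.42.0 and limma 3.58.1 were alternatives. CPM values are TMM-normalised, and log2 CPM used a prior count of 2. Intervals are 95% intervals of the fit. Libraries sharing a number in the titles came from the same mouse by the series design. Deviations of the libraries from their group means correlated at 0.24 to 0.63 within mice and -0.06 on average between mice, across genes.

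Members and lists were chosen with earlier results of these data known. Values by library were given for the MCM genes, *Pcna*, *Mki67*, *Top2a*, *Ccnb1*, *Cdk1* and, chosen after their values were seen, *E2f1*, *Pola1* and *Fen1*. Of the wider lists, up to 3 genes past the threshold at each end were named, and *Rbl1*, *Rbl2* and *Lin54* beyond that rule. A gene of these lists is not reported here. The p-values of the fit with the mouse as block set a difference against how much the within-mouse differences varied over these mice.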

Additional observations from a re-analysis of the deposited data

Results flagged for a closer look

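For each gene and score, the 8 libraries of a fraction were examined for 1 library apart from the rest, by the gap to its nearest neighbour as a share of the whole range. Of 102 sets 7 passed the 95% limit, where chance picks about 1 in 20, or 5.1 sets. In the tdTom− fraction the library of mouse 7 was the highest for *Birc5* (gap 0.532 of the range), *Cdc20* (0.583), *Cenpe* (0.574) and the mitotic score (0.580). These sets share 1 library and are not independent. In the tdTom+ fraction the library of mouse 3 was the lowest for *Tyms* (0.711) and *E2f1* (0.571). For the mitotic minus replication score the tdTom+ library of mouse 5 was the highest (0.652), at 0.57 against 0.34 to 0.42 in the other 7.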

How the results depend on the processing

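The count of replication genes called, 0 as reported, was 3 with upper quartile factors, 5 with at least 10 counts in every library, 4 at an adjusted p under 0.05 and 0 to 6 with 1 mouse left out, where *E2f1* alone passed without mouse 3 and 6 genes without mouse 7. The cause was not tested. Those factors, that filter and leaving out mouse 3 moved all genes by 0.10, 0.12 and 0.10 (log2) at the median and turned the split of all calls from 3956 higher and 4600 lower to 4863 and 3917, 4448 and 3356, and 4528 and 3626, so the *E2f1* difference of 0.44 under that filter is 0.32 relative to the shift. *Bub1* (-0.03) changed sign, to 0.0879 under that filter and 0.0864 without mouse 3, in a range from -0.0918 to 0.0864 with 1 mouse left out. Of the 48 genes 26 kept their sign under all alternatives run, and the other 22 had absolute log2 differences of up to 0.11. The mitotic count was 0 throughout. A fold minimum of 2 left 3498 of the 8556 calls over all genes and 2 of 28 wider calls. With 1 mouse left out and no fold minimum these counts were 7911 to 8923 and 19 to 33. Without the replicate block 7606 genes, 20 wider genes and 0 of the 48 were called. Scores moved less than their spread over mice, with 1 mouse left out giving 0.05 to 0.20 for replication, -0.05 to 0.12 for mitosis and -0.10 to -0.08 for their difference. Thinning to 17116405 counts called 0 of the 48.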
